A study of Homo sapiens with 6 samples.

Results

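The PGRMC2 and JADE1 locus is a stretch of 1006 kb on human chromosome 4 that holds 81 of the 171517 ATAC-seq peaks counted in human naive embryonic stem (nES) cells. Its members are all peaks from 200 kb before PGRMC2 to 200 kb after JADE1, chr4:128069237-129075224 in hg38 with the genes placed by GENCODE 44. The locus was picked for its many peaks that closed with dm-αKG, dimethyl α-ketoglutarate, an ester of the TCA cycle metabolite α-ketoglutarate that can enter cells. The locus was thus chosen by the log2 fold changes between treatments, and its values inside the locus are given as a description, without a test.

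ATAC-seq uses a transposase to cut and tag open chromatin, so reads gather where DNA is accessible. The libraries came from H9, an established line of human embryonic stem cells kept naive in tt2iLGö medium, which holds inhibitors of MEK, GSK3 and protein kinase C together with LIF. Feeder cells were depleted before the cells were plated on laminin. One group of 3 libraries received 4 mM dm-αKG for 24 h, and the other 3 libraries were controls, named DMSO in the labels and 0 mM dm-αKG in the methods. All 6 libraries share the cell line, the medium and a single run of the experiment with 3 biological replicates per group. Library totals were 13025674 to 26828622 counts in peaks, and counts are given normalized to the mean library. No peak of the locus had a count of 0 in any library, and the lowest raw count was 6. Promoter peaks of KLF17, DPPA5, SUSD2, NANOG and POU5F1, genes of naive cells, held means of 271 to 746 in control. DPPA3 had no peak within 1 kb of a start. Promoter peaks of GATA2, GATA3, CDX2, GATA4, SOX17 and TBXT, genes of other early lineages, were present too, at lower control means of 140 to 263. The presence of an open promoter alone thus did not tell these cell types apart.

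PGRMC2 belongs to the membrane-associated progesterone receptor family of haem-binding proteins and carries haem from mitochondria towards the nucleus. JADE1 is a scaffold subunit of the HBO1 complex, in which the acetyltransferase KAT7 acetylates histones and the scaffold, a JADE or a BRPF protein, directs it to histone H4 or H3. Gene regulatory elements (GREs) that lie far from a start are often enhancers, which transcription factors keep open in a cell type. ATAC-seq does not say which gene such an element serves.

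PGRMC2 (ENSG00000164040) lies on the minus strand at chr4:128269237-128288829, and JADE1 (ENSG00000077684) on the plus strand at chr4:128809700-128875224. Their starts are 520.9 kb apart, and the genes are transcribed away from the interval between them. That interval holds the long noncoding RNA genes LINC02615 and JADRR and 4 others known by identifiers only. LARP1B, which encodes a La-related RNA-binding protein, reaches into the locus on the PGRMC2 side, and SCLT1, which encodes a protein of the centriole's distal appendages, overlaps the end of JADE1.

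Peaks of the locus were 200 to 410 bp wide. The 10 peaks called less accessible are numbered here as sites 1 to 10 along the chromosome, and the hg38 plus strand of sites 1, 3, 4, 5, 7, 8 and 10 is printed because they are among the sequences that lost most accessibility. Site 1 is cut to its central 300 bases, chr4:128349979-128350278. A stretch of 45 bases of site 2, chr4:128462264-128462308, was added after its values were seen, because it holds the only OCT-SOX match among the 10. The 93 bases of the JADE1 promoter peak that lie before its UTR, chr4:128809607-128809699, are shown as a promoter that changed little. The PGRMC2 promoter peak lies wholly in annotated UTR and is not printed. Capitals mark consensus matches on either strand.
site 1: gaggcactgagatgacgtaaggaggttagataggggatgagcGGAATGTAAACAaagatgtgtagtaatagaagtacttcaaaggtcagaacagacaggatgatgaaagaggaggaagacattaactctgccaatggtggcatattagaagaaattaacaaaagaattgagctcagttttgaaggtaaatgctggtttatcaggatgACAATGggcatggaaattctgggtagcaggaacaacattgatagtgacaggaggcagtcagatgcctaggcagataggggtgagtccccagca
site 3: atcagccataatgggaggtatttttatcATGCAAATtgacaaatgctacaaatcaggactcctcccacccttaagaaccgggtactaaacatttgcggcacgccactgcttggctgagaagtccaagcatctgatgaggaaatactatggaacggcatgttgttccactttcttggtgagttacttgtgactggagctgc
site 4: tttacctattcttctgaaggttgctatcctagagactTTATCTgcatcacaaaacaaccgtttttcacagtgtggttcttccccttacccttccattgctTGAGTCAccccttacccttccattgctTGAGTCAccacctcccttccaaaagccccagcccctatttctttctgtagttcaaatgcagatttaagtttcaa
site 5: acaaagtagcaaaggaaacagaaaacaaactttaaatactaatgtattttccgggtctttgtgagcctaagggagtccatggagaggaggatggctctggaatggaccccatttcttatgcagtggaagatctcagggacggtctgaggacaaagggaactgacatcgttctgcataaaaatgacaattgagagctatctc
site 7: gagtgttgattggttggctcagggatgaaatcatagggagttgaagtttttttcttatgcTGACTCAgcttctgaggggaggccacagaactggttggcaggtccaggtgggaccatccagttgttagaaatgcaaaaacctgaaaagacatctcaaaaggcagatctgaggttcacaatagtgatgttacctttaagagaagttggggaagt
site 8: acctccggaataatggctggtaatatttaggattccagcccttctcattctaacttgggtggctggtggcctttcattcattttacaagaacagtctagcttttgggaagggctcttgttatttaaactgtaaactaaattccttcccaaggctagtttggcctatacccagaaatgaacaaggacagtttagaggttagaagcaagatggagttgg
site 10: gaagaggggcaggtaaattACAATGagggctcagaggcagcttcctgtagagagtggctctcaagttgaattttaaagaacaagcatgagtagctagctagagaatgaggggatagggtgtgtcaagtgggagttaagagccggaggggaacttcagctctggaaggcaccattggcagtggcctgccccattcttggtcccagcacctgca
site 2, stretch: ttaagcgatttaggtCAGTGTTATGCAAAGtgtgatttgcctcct
JADE1 upstream: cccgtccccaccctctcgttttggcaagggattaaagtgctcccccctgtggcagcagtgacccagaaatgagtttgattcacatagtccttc

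The motifs searched were consensus letters of factor families of early development, on both strands. For the pluripotency factors, OCT was spelled ATGCAAAT and KLF was spelled CCACACCC, while SOX, a partner family of OCT4, was spelled CATTGT. Of the families that are active in trophoblast, TFAP2 was spelled GCCNNNGGC and TEAD, the DNA-binding partner of the Hippo effector YAP, was spelled ACATTCC. The GATA family, of endoderm and trophoblast, was spelled AGATAA. For AP-1, formed by JUN and FOS proteins, the letters were TGACTCA. For FOX, the forkhead family, the letters were TGTTTAC. OCT-SOX, the joint site of OCT4 and SOX2, was searched with up to 2 mismatches, and CTCF, the factor of chromatin loops, with up to 1. The OCT-SOX motif contains the OCT and SOX motifs, so their matches can overlap. Positions are counted from the first base of the peak. Site 3 holds the octamer ATGCAAAT at base 29, and site 2, which lies 292 bp away from centre to centre, holds an OCT-SOX match at base 88 and a SOX match at base 182. Site 4 holds a pair of AP-1 matches at bases 101 and 128 and a GATA match at base 38, and site 7 holds an AP-1 match at base 61. Site 10 holds a SOX match at base 20, and site 9, not printed, a GATA match at base 231. In site 1, TEAD and FOX matches overlap from base 83, and SOX matches lie at base 12, outside the printed stretch, and at base 248. Sites 5 and 8 hold none of the searched motifs. A match is a description of letters and does not show that a factor bound.

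Within 200 bp around the centre, SOX matches were in 12 of the 81 peaks (14.8%) and in 7.88% of all peaks of the table. The octamer was in 5 peaks (6.17%, against 2.28% of all), and OCT-SOX in 3 (3.70%, against 0.758%). These shares were above those of all peaks. Of the 3365 peaks called less accessible anywhere, 17.7% held SOX, 6.36% OCT and 2.85% OCT-SOX. That set holds called peaks only, while 71 of the 81 peaks of the locus were not called. Among distal peaks, SOX was in 10 of 66 in the locus (15.2%) and in 9.83% of the table. OCT was in 4 (6.06%, against 2.98%) and OCT-SOX in 2 (3.03%, against 1.04%). The distal peaks of the locus had a median GC content of 47.5%, against 52% in the table, and the shares were not matched for GC. Among all 81 peaks, TEAD was in 6 (7.41%, against 4.49%), GATA in 6 (7.41%, against 6.22%) and AP-1 in 4 (4.94%, against 4.50%). TFAP2 was in 10 peaks (12.3%, against 17.9%), CTCF in 6 (7.41%, against 10.6%), KLF in 2 (2.47%, against 4.26%) and FOX in 0, against 2.85% of all. Among distal peaks the TFAP2 shares were 13.6% in the locus and 14.2% in the table, and the CTCF shares 9.09% and 12.7%. Among the 10 called peaks, SOX was in 3, AP-1 in 2, and OCT, OCT-SOX, KLF and GATA in 1 each, while TEAD, TFAP2, FOX and CTCF were in none. Peaks of a single locus share a region, so these shares carry no test. The 10 called peaks had a GC content of 37.5 to 55%, with a median of 43.5%, below the 48% of the other peaks of the locus and the 52% of all distal peaks.

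With dm-αKG the locus was less accessible in the interval between the genes, while the promoter peaks of PGRMC2 and JADE1 had log2 fold changes of 0.01 and -0.10. In bulk libraries, fewer cells with an open site and less opening per cell cannot be told apart. Of the 81 peaks, 10 were called less accessible (12.3%), at an edgeR adjusted p below 0.01 and a log2 fold change below -1, where 1.96% of all peaks were called. None was called more accessible, where 0.782% of all peaks were. In 34 peaks (42.0%) every dm-αKG library lay below every control, against 16.9% of all peaks, and in 6 (7.41%) every dm-αKG library lay above, against 15.5%. Without the fold threshold, 18 peaks (22.2%) changed at the same adjusted p, against 9.88% of all. The log2 fold changes had a median of -0.35, with 61 peaks lower and 20 higher, while the median over all peaks was 0.01. Since the locus was chosen for its closing peaks, these counts restate the choice.

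The called peaks were all distal, as were 92.3% of the 3365 peaks called less accessible anywhere. The 66 distal peaks, more than 1 kb from any start of a protein-coding or long noncoding RNA gene, included all 10 called ones (15.2%) and had a median log2 fold change of -0.46. Over all distal peaks of the table, 2.75% were called less accessible and the median was -0.06. The 15 peaks within 1 kb of a start included 0 called ones and had a median of -0.01, where all such peaks of the table had 0.440% called and a median of 0.09.

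**Figure D1:**
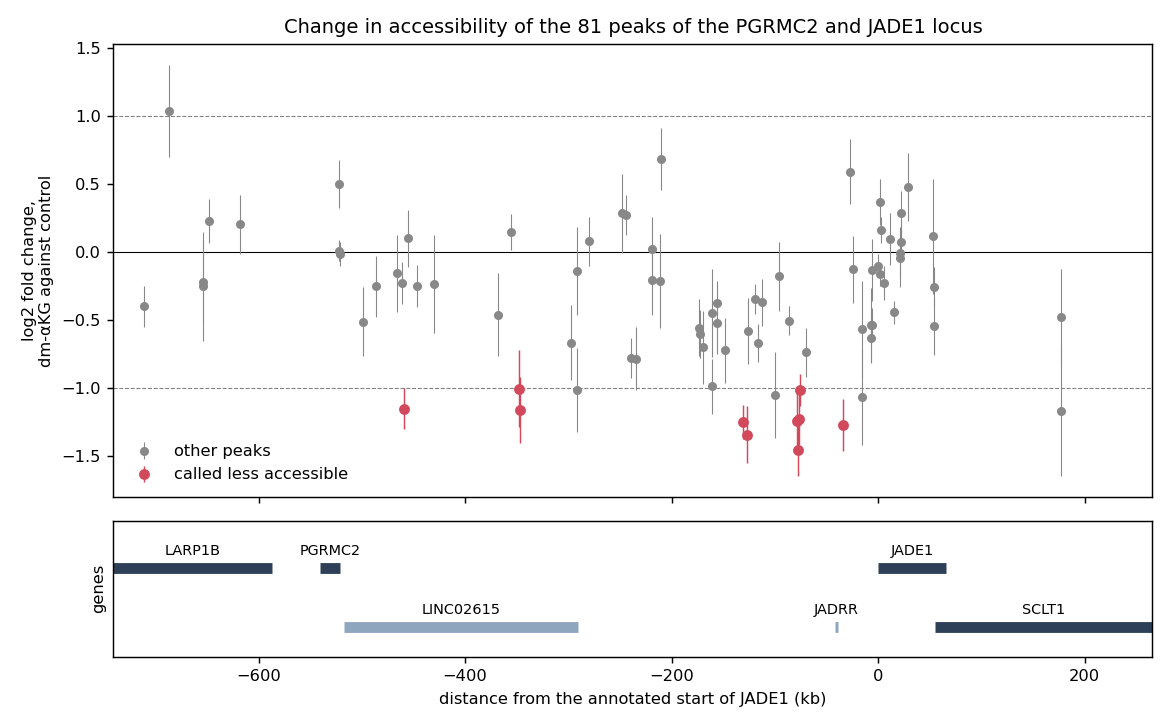
The log2 fold change of each of the 81 peaks (upper panel, dm-αKG against control, bars ±1 SE of the edgeR fit) is plotted against its distance from the JADE1 start in kb, with the genes drawn to the same scale (lower panel, long noncoding RNA genes in pale blue). Dashed lines mark log2 fold changes of -1 and 1, and the 10 called peaks (red) all lie between PGRMC2 and JADE1, the last of them 34.0 kb before the JADE1 start.

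The interval between the genes held 55 of the 81 peaks and all 10 called ones (18.2%, against 1.96% of all peaks). Its median log2 fold change was -0.54, with 47 peaks lower. In 29 peaks (52.7%) the dm-αKG libraries all lay below the controls, against 16.9% of all peaks. In 1 (1.82%) they all lay above, against 15.5% of all. The interval holds the closing peaks that the locus was picked for, so these counts restate that choice. Taken separately over the 55 peaks, the median of the mean normalized counts was 59.8 in control and 44.1 with dm-αKG. The 15 peaks within JADE1 had a median of -0.01 and ranged from -0.55 to 0.48, and the 3 within PGRMC2 ranged from -0.02 to 0.50. The 6 peaks before PGRMC2, all within LARP1B, ranged from -0.40 to 1.04 around a median of -0.01. Only 2 peaks lay after JADE1, with log2 fold changes of -0.48 and -1.17.

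The falls were densest on the JADE1 side of the interval, where an unbroken run of 23 neighbouring peaks was lower with dm-αKG. This run covers 139.7 kb, chr4:128636046-128775761, and holds 7 of the 10 called peaks. In 19 of its 23 peaks the treatments did not overlap, against 16.9% of all peaks with dm-αKG below control, and its log2 fold changes had a median of -0.70. The run was picked for its negative fold changes, so both values restate that choice. From the first called peak to the last, 425.8 kb held 43 peaks, of which 36 were lower. The first called peak lies 61.3 kb from the PGRMC2 start.

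Sites 1 to 3 lie in introns of LINC02615, a long noncoding RNA gene. Site 1, chr4:128349939-128350318, held 184, 186 and 175 normalized counts in the controls and 73.1, 70.6 and 108 with dm-αKG. The 3 treated libraries were all well below the controls, the third of them closest. The mean fell from 182 ± 5.88 to 83.8 ± 20.8 (SD, n = 3 per group), a log2 fold change of -1.15 (SE 0.15).

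Site 2, chr4:128462192-128462391, is the peak with the OCT-SOX match and the least accessible of the 10 in control. It held 46.5, 41.9 and 52.2 counts in the controls and 17.9, 23.1 and 31.4 with dm-αKG, with a mean of 46.9 ± 5.16 against 24.2 ± 6.81. The groups did not overlap, but its log2 fold change of -1.01 (SE 0.29) sat at the threshold, and the call was lost without any single control and without dm-αKG library 1 or 2, with values from -0.78 to -1.08. Site 3, chr4:128462484-128462683, which carries the octamer, held 57.2, 67.4 and 68.0 in the controls and 28.7, 25.7 and 31.4 with dm-αKG. Its mean fell from 64.2 ± 6.05 to 28.6 ± 2.89 (log2 fold change -1.16, SE 0.24), and both groups were tight.

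Sites 4 and 5 are intergenic, at -131.3 and -126.6 kb from the JADE1 start. Site 4, chr4:128678332-128678532, with its pair of AP-1 matches, held 257, 268 and 290 counts in the controls and 118, 110 and 109 with dm-αKG. The libraries of each group lay close together and far from the other group, with means of 272 ± 17.1 and 113 ± 4.95 and a log2 fold change of -1.25 (SE 0.12). Site 5, chr4:128683028-128683228, held 89.4, 96.2 and 97.2 in the controls and 43.7, 35.9 and 26.9 with dm-αKG, and the treated libraries spread more than the controls. Its mean fell from 94.3 ± 4.21 to 35.5 ± 8.41 (log2 fold change -1.35, SE 0.21).

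Sites 6 to 9 form a cluster in which neighbouring centres are 228 to 1215 bp apart, from -78.6 to -76.1 kb relative to the JADE1 start. Site 6, chr4:128731025-128731224, held 68.0, 64.1 and 87.5 counts in the controls and 24.4, 34.6 and 35.9 with dm-αKG, a fall of the mean from 73.2 ± 12.5 to 31.6 ± 6.32 (log2 fold change -1.24, SE 0.24). Site 7, chr4:128732233-128732445, held 118, 131 and 121 in the controls and 57.4, 35.9 and 34.4 with dm-αKG. This was the largest fall among the 81 peaks, from 123 ± 6.54 to 42.6 ± 12.8 (log2 fold change -1.46, SE 0.19), and the first treated library stood above the other 2. Site 8, chr4:128732459-128732675, held 104, 138 and 111 in the controls and 48.8, 48.7 and 53.9 with dm-αKG, with means of 117 ± 18.2 and 50.5 ± 2.96 (log2 fold change -1.23, SE 0.19).

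Site 9, chr4:128733506-128733773, was the most accessible of the 10 in control. It held 273, 358 and 288 counts in the controls and 148, 140 and 171 with dm-αKG, and its mean fell from 306 ± 45.7 to 153 ± 15.9. Control library 2 was its highest, and without that library the log2 fold change of -1.02 (SE 0.12) became -0.88 and the call was lost, as it was without dm-αKG library 1 (-0.99) or 2 (-0.97). Of the stretches of 31 bases in sites 6 to 9, 42.9, 20.8, 26.7 and 27.7% occur elsewhere in hg38, where reads could be placed at more than 1 position. The other 6 called peaks, and 66 of the 81 in all, had none.

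Site 10, chr4:128775550-128775761, is the called peak nearest to JADE1, 34.0 kb before its start, and lies 7427 bp from the start of JADRR, a long noncoding RNA gene named for JADE1. It held 116, 110 and 109 counts in the controls and 42.3, 44.9 and 53.9 with dm-αKG. Both groups were tight, with a mean of 112 ± 3.80 in control and 47.0 ± 6.08 with dm-αKG (log2 fold change -1.28, SE 0.19).

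**Figure D2:**
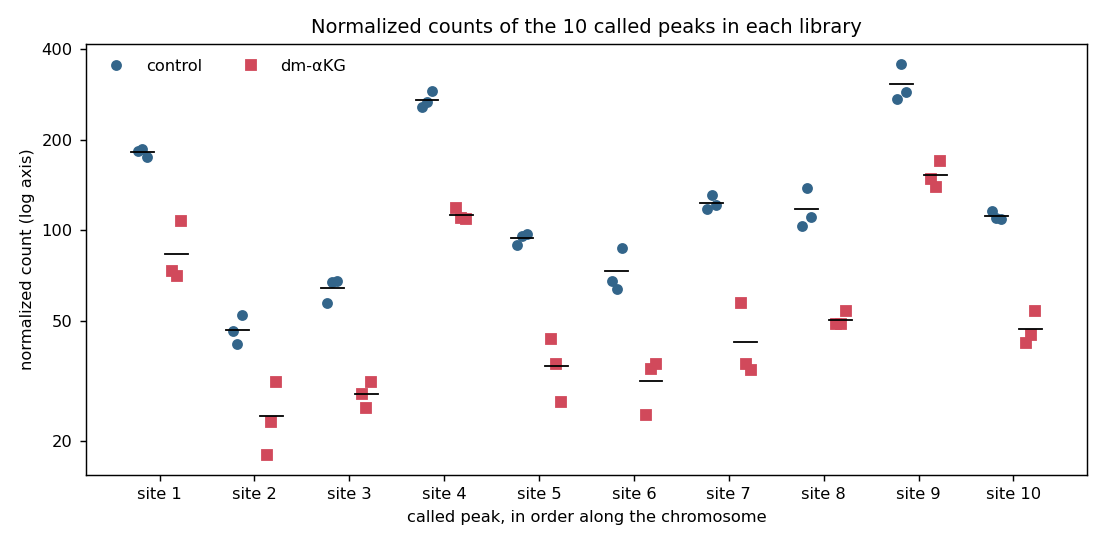
Normalized counts of the 10 called peaks in each library (log axis) are shown in order along the chromosome, with controls as circles, dm-αKG as squares and group means as bars. In each of the 10 peaks all 3 squares lie below all 3 circles, with site 9 highest and site 2 lowest in control.

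Among peaks with an adjusted p below 0.01, just outside the fold threshold, the intergenic peak chr4:128648591-128648798 fell from a mean of 89.0 to 44.1 (log2 fold change -0.99), and 31.5% of its stretches of 31 bases occur elsewhere. Next came the peak at the start of ENSG00000248187 (-0.78) and the intergenic peak chr4:128739225-128739426, which went from 107 to 66.1 (-0.74). Just inside the threshold were sites 2, 9 and 1, at -1.01, -1.02 and -1.15. Another 4 peaks, at means of 17.7 to 38.3 in control, had log2 fold changes of -1.02 to -1.17 and were not called, since the adjusted p missed 0.01.

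The highest log2 fold change in the locus was 1.04, at chr4:128123126-128123325 in an exon of LARP1B. Its counts were low, at 16.1, 10.7 and 23.1 in the controls and 30.1, 34.6 and 35.9 with dm-αKG, and it was not called, since the adjusted p missed 0.01. At the edges of the window, the first peak inside had a log2 fold change of -0.40 and its neighbour outside 0.05. The last peak inside had -1.17, from a mean of only 17.7 to 8.28, and its neighbour outside 0.40.

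The promoters of both named genes were among the most accessible peaks of the locus under both treatments. The PGRMC2 promoter peak, chr4:128287922-128288135, an exonic region of annotated UTR, held 523, 548 and 526 counts in the controls and 510, 561 and 545 with dm-αKG. The groups overlapped, with means of 532 ± 13.8 and 538 ± 26.0 and a log2 fold change of 0.01 (SE 0.08), and the mean over all libraries was the highest in the locus. A neighbouring peak 0.6 kb inside the gene's start gave -0.02, and a weaker one 1.5 kb inside it had 72.2 ± 2.67 in control and 99.9 ± 17.8 with dm-αKG (0.50) and was not called.

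The JADE1 promoter peak, chr4:128809607-128809807, held 445, 420 and 458 counts in the controls and 367, 478 and 395 with dm-αKG. The treated libraries spread around the controls, with means of 441 ± 19.3 and 414 ± 57.9 and a log2 fold change of -0.10 (SE 0.09). JADE1 has 8 peaks within 1 kb of one of its annotated starts, and their log2 fold changes ran from -0.17 to 0.37. Farther in, 15.7 kb from the start, the intronic peak chr4:128825319-128825533 fell from 504 ± 29.3 to 375 ± 31.5 (-0.45), all dm-αKG libraries being below all controls. It and both promoter peaks had the 3 highest mean counts of the locus.

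**Figure D3:**
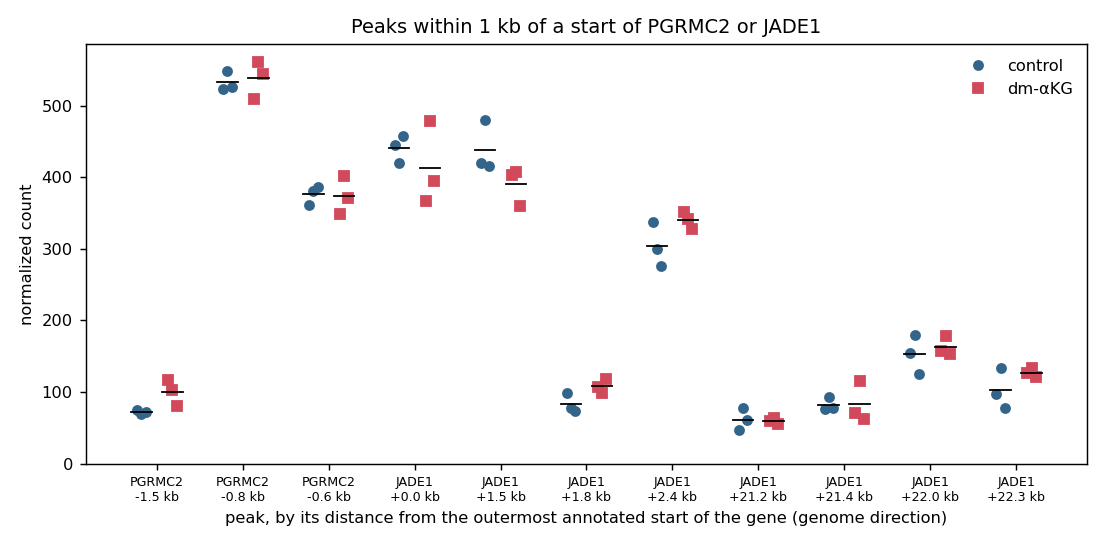
Normalized counts of the 11 peaks within 1 kb of an annotated start of PGRMC2 or JADE1 are plotted per library (circles control, squares dm-αKG, bars means), ordered by distance from the outermost start in kb along the chromosome, so that negative distances lie inside PGRMC2. In the strongest PGRMC2 peak (532 against 538) and at the JADE1 start (441 against 414) the libraries of both groups overlap.

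Among the other genes of the region, the strongest peak at the LARP1B start, just outside the window, had 1130 ± 11.1 counts in control and 1106 ± 44.7 with dm-αKG (log2 fold change -0.03). At the SCLT1 start, also outside, the values were 941 ± 26.8 and 1035 ± 103 (0.13). A peak at an internal start of LINC02615 gave 0.15, and a pair at the start of ENSG00000289243 gave -0.38 and -0.52, the second of which went from 59.8 to 40.5 with all dm-αKG libraries below all controls. The peak at the start of ENSG00000248187, chr4:128570453-128570862, had the lowest log2 fold change of the 15 peaks near a start, with 159, 181 and 175 counts in the controls and 96.8, 87.2 and 118 with dm-αKG (172 ± 11.2 against 101 ± 15.9, log2 fold change -0.78). JADRR, ENSG00000273077 and ENSG00000248802 had no peak within 1 kb of a start.

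Summed over all 81 peaks, the locus held 9064, 9338 and 9064 normalized counts in the controls and 7194, 7367 and 7738 with dm-αKG. The mean sum was 9155 ± 158 in control and 7433 ± 278 with dm-αKG, 81.2% of control (log2 ratio -0.30). The 10 called peaks summed to 1391 ± 74.2 in control and 609 ± 43.4 with dm-αKG (43.8%), and the 71 others to 7764 ± 107 and 6824 ± 247 (87.9%). The called peaks held a small share of the signal, and the sum of the others was lower as well. By median log2 fold change, peaks outside the interval stood at -0.01 before PGRMC2, 0.01 within PGRMC2, -0.01 within JADE1 and -0.83 after it. The 55 peaks between the genes summed to 5072 ± 54.0 and 3500 ± 287 (69.0%). The treatments did not overlap in any of these 4 sums.

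**Figure D4:**
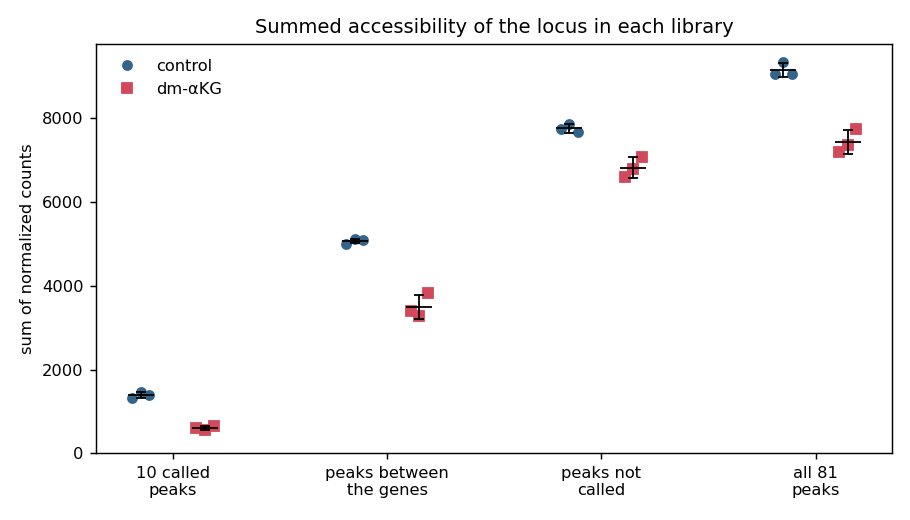
Normalized counts summed over 4 sets of peaks are shown for each library (circles control, squares dm-αKG), with the mean as a long bar and ±1 SD as error bars (n = 3). The dm-αKG sums lie below all control sums in each set, from 1391 to 609 in the 10 called peaks and from 9155 to 7433 in all 81.

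The authors' peak lists, called separately in each treatment, can be set beside the counts, although the depth of the libraries differed between treatments. Of the 81 peaks, 63 overlapped both lists, 14 only the control list (17.3%, against 11.7% of all peaks) and 4 only the dm-αKG list (4.94%, against 10.9%). Sites 2, 3 and 6 were in the control list only, and the other 7 called peaks were in both. Site 10 had the highest fold enrichment of the 10 in control, 23.1, and 13.0 with dm-αKG. Site 4 had 22.3 and 19.4, and site 1 had 10.8 and 9.16.

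Counting peaks called less accessible from 200 kb before to 200 kb after each of 20033 protein-coding genes, JADE1 had 7 of 48 peaks (14.6%) and rank 13, and PGRMC2 had 3 of 21 (14.3%) and rank 535. The genes of most like pattern elsewhere, by this number, were VWF on chromosome 12 with 12 of 95 peaks, SMAD6 on chromosome 15 with 9 of 72, ZNF83 on chromosome 19 with 9 of 97, ZBED1 on chromosome X with 8 of 58, and DAB1 on chromosome 1 with 8 of 95. DAB1 is long, so its window spanned 1952 kb where that of JADE1 spanned 465.5 kb. When the genome was divided into bins of the length of the locus, 4 other bins of 2887 with peaks held at least 10 peaks called less accessible. The median bin held 1, the highest 18, and 1234 bins held 0. These are numbers of called peaks and not shares, and the bins held a median of 47 peaks where the locus holds 81. The locus was picked for its closing peaks, while the bins were not.

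Partner genes of JADE1 and PGRMC2 lie at other loci, which the choice of this region did not use, so their promoter peaks were tested. The list was chosen with earlier results of these data known, and each gene was read at its promoter peak of highest mean count. All 12 genes of the list had a promoter peak, and 0 of 12 passed the edgeR quasi-likelihood test at an adjusted p below 0.01 over all peaks, where 6.82% of all promoter peaks passed, so that 0 of 12 lies near the background. DESeq2 also called 0, and 2 (BRPF3 and CYB5D2) had an unadjusted edgeR p below 0.05. The share of all promoter peaks below that unadjusted p is not given here, so this count has no background beside it. KAT7, the catalytic subunit, held 965, 889 and 1040 counts in the controls and 1008, 1128 and 1001 with dm-αKG, and its groups overlapped (965 ± 75.2 against 1046 ± 71.2, log2 fold change 0.12, edgeR adjusted p = 0.210). The other scaffolds gave 0.02 at JADE2, 0.07 at JADE3, 0.10 at BRPF1, 0.01 at BRD1 and 0.15 at BRPF3 (edgeR adjusted p = 0.161). The BRD1 peak was weak, with 36.8 ± 6.95 counts in control and 35.4 ± 10.7 with dm-αKG, and its log2 fold change had an SE of 0.27. The histone-reading subunits ING4 and ING5 gave 0.10 and -0.05, and the small subunit MEAF6 gave 0.05. In the family of PGRMC2, its closest relative PGRMC1 gave -0.06, the secreted NENF 0.12 and CYB5D2 0.23 (edgeR adjusted p = 0.100). Over the 12 genes the median log2 fold change was 0.09, and it was 0.09 over all promoter peaks too.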

How the data were processed

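ATAC-seq libraries of nES cells, 3 controls and 3 with dm-αKG, were grouped by the treatment in the labels. Reads were aligned by the authors with Bowtie 2 (build hg38) and passed through the ENCODE pipeline, 1 run per treatment. They called peaks with MACS2, shortened them to 200 bp around the summit, merged both lists with bedtools 2.28.0, and deposited raw counts of reads per merged peak and library. Their 2 peak lists were deposited with a score, a fold enrichment ratio and −log10 q-values for each peak. Only the fold and the peaks' positions were used, as a description.

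Counts of all 171517 peaks were fitted with edgeR 4.0.16 in R 4.3.3 (TMM scaling, factors 0.991 to 1.01, quasi-likelihood test, treatment as the only term), and p-values were adjusted by Benjamini-Hochberg over all peaks. Calls needed an adjusted p below 0.01 together with a log2 fold change below -1 or above 1, the thresholds of the paper. The paper used them with DESeq2 and reported fewer called peaks in both directions than the 3365 less and 1342 more accessible ones here. Normalized counts are counts divided by the scaled library size and multiplied by its mean. The SE of a log2 fold change is its size over the square root of the F statistic. No peak was filtered out. Replicate pairs of libraries differed by more than sampling noise (chi-square per degree of freedom 1.80 to 2.16), so none was a library deposited more than once. The replicates are biological per the paper, from an experiment done once, so errors cover the spread within that experiment. A difference in batch between the groups cannot be told apart from treatment. Genes came from GENCODE 44, and sequences and motifs from hg38, read with Python 3.11.15. Any shift of reads to the transposase cut is not given in the sources used here.

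The fits were tested on simulated counts of 171517 peaks, 200 of them altered by a log2 fold of 2. There edgeR recovered 99.5% with 1 false call and DESeq2 1.42.0 recovered 99.5% with 0. The altered peaks were drawn from well-covered ones only. Changes as small as those called in the locus were not simulated, so their recovery was not tested.

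The locus, the partner list and the motifs were chosen with earlier results of these data known. Named peaks were those called, the promoter peak of each protein-coding gene with a start in the window, the 3 with the highest mean count, the 3 nearest to the fold threshold on each side among those with an adjusted p below 0.01, and those at the window edges. Genes of like pattern were the 5 outside the window with the most called peaks, taking 1 gene per run of overlapping windows. Other peaks named in the text were chosen after their values were seen. The sequence of site 6, whose fall lay within the range of the printed ones, and its motif positions are not reported here. The partners were 9 genes of the HBO1 complex and 3 of the family of PGRMC2, each read at the promoter peak of highest mean count within 1 kb of a start. Alternatives used DESeq2, RLE or total-count scaling, a filter on low counts, a replicate block, other thresholds, a window with 100 kb flanks, the whole peak for motifs, and each library left out.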

Additional observations from a re-analysis of the deposited data

How the results depend on the processing

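The number of peaks called less accessible in the locus was 10, and 8 to 12 under 12 alternatives. It was 9 with DESeq2, 10 with RLE scaling, 9 with total counts, 12 with at least 10 counts in every library, 10 with 100 kb flanks, and 8 to 10 with 1 library left out. With any fold change and an adjusted p below 0.05 it was 25. At that setting 3 peaks were called more accessible, against 0 under all other alternatives, 0 to 0 with 1 library left out. The share of all peaks at that setting is not given here, so these counts have no background beside them. At an adjusted p below 0.01 with any fold change, 9.88% of all peaks already passed. Sites 2 and 9 lie at the fold threshold and kept the call in 4 and 7 of 11 refits, while the other 8 sites kept it in all 11. The promoter log2 fold changes lay between -0.02 and 0.06 at PGRMC2 and between -0.22 and -0.002 at JADE1 with 1 library left out. The summed log2 ratio lay between -0.33 and -0.28 with 1 library left out and was -0.31 with 100 kb flanks. No partner gene passed under any of 11 alternatives. With whole peaks searched, the share with a GATA match was 11.1%, with TFAP2 13.6%, with TEAD 8.64% and with FOX 2.47%. Whole peaks were searched in the locus only, so these shares cannot be set against those of all peaks, found within 200 bp. Replicates with the same number did not deviate together (correlations of deviations -0.016, -0.0009 and 0.013), so the numbers were not taken to pair the samples. With the replicate block, 9 peaks were called less and 0 more accessible, the promoter log2 fold changes were 0.01 at PGRMC2 and -0.10 at JADE1, and 0 partner genes passed. DESeq2 gave no adjusted p for 6652 peaks, 1 of them in the locus. The lowest raw count of a peak of the locus in a library was 6, and the effect of depth was not tested.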
